A study of Rattus norvegicus with 43 samples.

Results

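The genes described here are the core of the hedgehog signalling pathway, measured in rat foreskin after exposure in the womb to dibutyl phthalate (DBP), a plasticizer that lowers fetal androgen action. The members were chosen by gene symbol as the ligands Shh and Ihh, the ligand-binding inhibitor Hhip, the receptors Ptch1 and Smo, the transcription factors Gli1, Gli2 and Gli3, and the inhibitor Sufu. Of these 9 genes, 7 were measured, by 9 probes, among 13337 genes with a symbol on the array. Ptch1 and Gli1 were not analysed here. Ihh and Gli3 each had a pair of probes and the others had 1.

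Foreskin RNA came from pups of Sprague Dawley dams that were gavaged on gestational days 16 to 20 with corn oil, with DBP at 100 mg/kg/day (DBP100) or with DBP at 500 mg/kg/day (DBP500). On gestational day 20 (GD20) each dose was a study with controls of its own, with 6 control and 5 exposed arrays for DBP100 and 6 control and 5 exposed arrays for DBP500. On postnatal day 5 (PND5), 5 days after birth and after the dosing had ended, there were 7 control, 7 DBP100 and 7 DBP500 arrays. Each of the 43 Illumina arrays carried RNA from 2 foreskins of a litter that had been pooled, so differences between littermates cannot be seen.

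Hedgehog ligands are secreted by epithelia and act on the mesenchyme beneath. Without ligand, the receptor Ptch1 holds Smo inactive, and the GLI transcription factors are processed into repressors or held by Sufu. When ligand binds Ptch1, Smo moves into the primary cilium, GLI proteins become activators, and they switch on targets that include Ptch1, Gli1 and Hhip. Hhip sits at the cell surface and sequesters the ligands, so that it limits the signal that induced it. In the genital tubercle Shh comes from the urethral epithelium and is needed for outgrowth and for closure of the urethra, and in skin it drives growth of the hair follicle.

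GLI proteins bind a DNA motif whose consensus is TGGGTGGTC. The RefSeq promoter windows of the GRCr8 build, which run from 250 bases before to 50 bases after the annotated gene start, held 6 of the 9 members: Hhip, Ptch1, Smo, Gli2, Gli3 and Sufu. Searched on both strands, the exact motif occurred in 1 of these 6 windows, that of Ptch1. Its match began at position -172 from the annotated start, and the stretch around it is shown, with the motif in capitals, because Ptch1 is the textbook target of the pathway. Among all 33469 windows of the same length, 129 held the exact motif, which was 0.385%. The Hhip window held no exact match and none with 1 mismatch, which says only that these letters were not in those 300 bases. The annotated start of Hhip is itself an ATG, so its window may lie partly in transcribed sequence. The Ptch1 stretch lies at chr17:1555379-1555427 on the plus strand.
Ptch1: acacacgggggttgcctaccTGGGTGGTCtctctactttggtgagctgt

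Levels are given as log2 of the background-corrected and quantile-normalized signal of a probe. A level of 1 probe was compared between arrays and never with that of another probe. An array detected between 10029 and 12078 of the 22523 probes (44.5% to 53.6%), at a detection p under 0.05. A probe was tested where it was detected on at least 5 arrays, which held for 13577 probes. At PND5 the replicates 1 to 4 of each group had a highest signal of 15335 to 17753 units and detected 10530 to 11319 probes, whereas replicates 5 to 7 reached 20110 to 29459 units and detected 11458 to 12078 probes. These are called the lower-signal and the higher-signal arrays. The 7 fibroblast markers were detected on every array. Of the 5 keratinocyte markers tested (Krt1, Krt10, Krt14, Krt15 and Ivl), all 5 were detected on every PND5 array, as skin would show.

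Of the 7 genes measured, Hhip and Smo were detected on most arrays of both ages, and the others were near or under the limit of detection on many arrays. Hhip was detected on all 43 arrays, and Smo on 38. Shh was detected on 15 of 21 PND5 arrays and on 0 of 22 GD20 arrays. Sufu reached detection on 11 arrays and the brighter Ihh probe on 6. Gli2 was detected on 1 array, 1 Gli3 probe on 4, and the other Gli3 probe and the second Ihh probe on none. The 5 tested probes were therefore those of Shh, Ihh, Hhip, Smo and Sufu, and the 4 probes of Gli2, Gli3 and the second Ihh probe were detected on at most 4 arrays and were not tested.

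**Figure D1:**
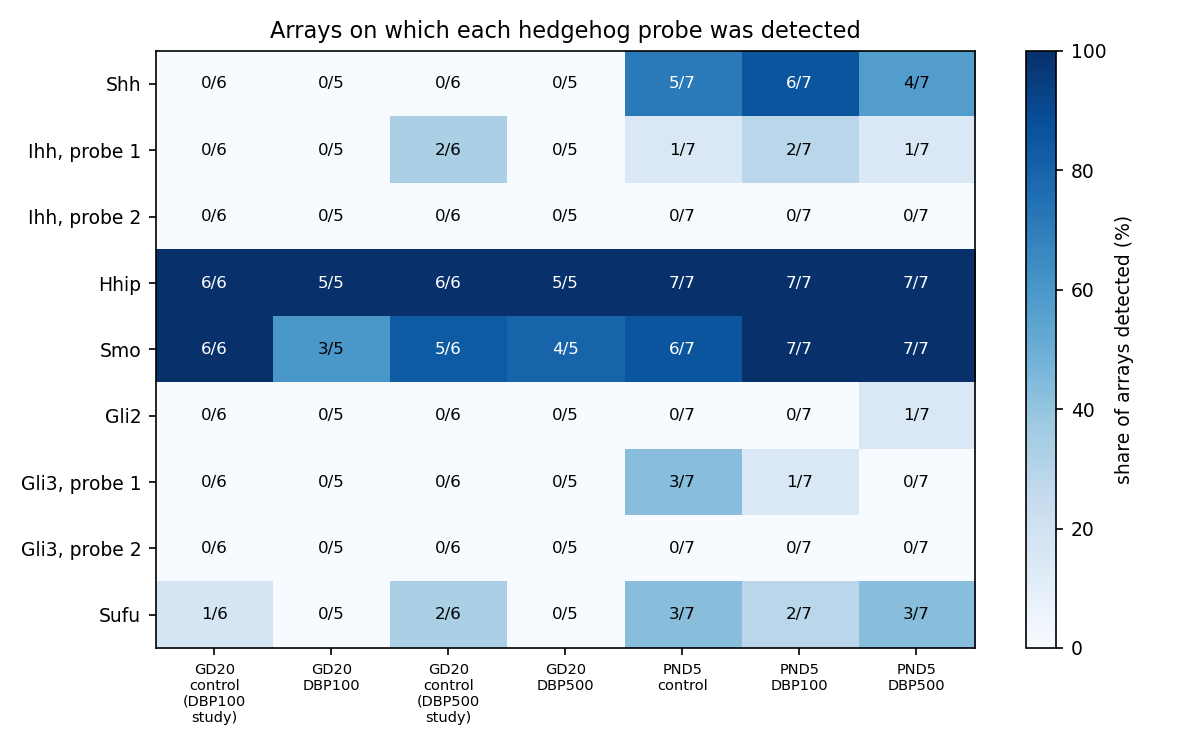
Number of arrays of each group (columns) on which each of the 9 probes (rows) was detected, with the share of arrays in percent as colour. Hhip was detected on every array, Smo on 38 of 43, and Shh on PND5 arrays alone.

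Shh, the ligand of the urethral epithelium and the hair follicle, was detected after birth alone, and its levels in exposed litters overlapped those of controls. In PND5 controls its level ran from 4.90 to 6.10 with a median of 5.59, in PND5 DBP100 from 4.67 to 7.12 with a median of 5.64, and in PND5 DBP500 from 5.19 to 6.31 with a median of 5.59. The ranges overlapped, and the DBP100 arrays spread beyond the controls on both sides. The GD20 arrays lay between 4.60 and 5.43, none of them detected, so that the lowest PND5 levels fell within the GD20 range. In the GD20 DBP100 group the levels were 5.01 to 5.24, and in the GD20 DBP500 group they were 4.60 to 4.94.

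Between the ages of the controls 61.6% of all tested probes passed, 26.7% upward and 34.9% downward, and Shh was the 1 member among them. It entered the fit through its PND5 arrays alone, so that its call is a description and supports no rise. The PND5 control mean was 5.61 ± 0.41 (SD, n = 7), and the measured mean over the GD20 control groups was 4.93. Because no GD20 array detected Shh, the difference is a bound set by the detection limit of those arrays. Taken on the means and without their sampling error, that bound was 1.04-fold for PND5 over GD20 controls. Shh was detected on 5 of 7 against 0 of 12 of these arrays, and age and study cannot be told apart. The limma adjusted p of 0.00183 belongs to the measured difference of 0.68 ± 0.19, whose GD20 side was not above background, and does not test this bound. In the DBP100 groups the bound on the means was 1.07-fold, with 6 of 7 against 0 of 5 arrays detected. The DBP500 groups gave no bound above 1, with 4 of 7 against 0 of 5 arrays detected.

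At PND5 Shh did not pass in either exposure comparison. The log2 difference was -0.04 ± 0.21 (SE) for DBP500 at PND5 (95% interval -0.46 to 0.39, adjusted p = 0.954) and 0.13 ± 0.21 for DBP100 at PND5 (interval -0.29 to 0.55, adjusted p = 0.887). The GD20 comparisons set probes that were not well above background in either group against each other, and no fold is given for them.

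Ihh, the second hedgehog ligand, known mainly from growing cartilage and gut, was near the limit of detection throughout. The tested probe had group means between 5.17 and 5.32 and was detected on 2 of 22 GD20 and 4 of 21 PND5 arrays. These are differences between values mostly not above background, and none passed. The log2 difference at PND5 was -0.09 ± 0.14 for DBP500 and -0.06 ± 0.14 for DBP100, with adjusted p of 0.787 and 0.920. The control difference between ages was 0.02 ± 0.12 (adjusted p = 0.874). The second Ihh probe was not above background on any array.

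Hhip, the inhibitor that binds the ligands and is itself a target of the pathway, was the member with the clearest exposure difference. At PND5 it fell 2.40-fold in DBP500 litters, and its mean was lower in exposed than in control litters in all 4 comparisons, of which 1 passed. The PND5 comparisons share their controls, so these 4 are not separate observations. No share of all probes is given for this count. Hhip was the 1 member of 5 tested that passed in DBP500 at PND5, where 3.67% of all tested probes passed, 2.18% downward and 1.49% upward. No member passed in DBP100 at PND5 (0.081% of all probes), in DBP500 at GD20 (0.302%) or in DBP100 at GD20 (0.589%).

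In PND5 controls the Hhip level was 7.55 at its lowest, 8.87 at the median and 9.84 at its highest. The DBP500 arrays ran from 6.32 through a median of 7.14 to 8.87, and the DBP100 arrays from 6.39 through 8.33 to 8.43. Of the DBP500 arrays, 4 of 7 lay below every control and 6 of 7 below the control mean, while 1 reached the level of the controls. Of the DBP100 arrays, 3 of 7 lay below every control and all 7 below the control mean. The control with 7.55, replicate 1, was itself far under the other controls, the next of which was at 8.58.

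The DBP500 difference at PND5 was -1.26 ± 0.31 on the log2 scale (95% interval -1.89 to -0.63, limma adjusted p = 0.0197). That of DBP100 was -1.11 ± 0.31 (interval -1.74 to -0.48) and did not pass (adjusted p = 0.133). The doses share their controls, and their direct difference was -0.15 ± 0.31 (interval -0.78 to 0.48, adjusted p = 0.936, with 0.0516% of all probes passing). An exact permutation test over the arrays, two-sided and added after the values were seen, gave unadjusted p = 0.0152 for DBP500 and 0.0274 for DBP100. In bulk RNA, fewer cells that express Hhip and less Hhip RNA per cell cannot be told apart.

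**Figure D2:**
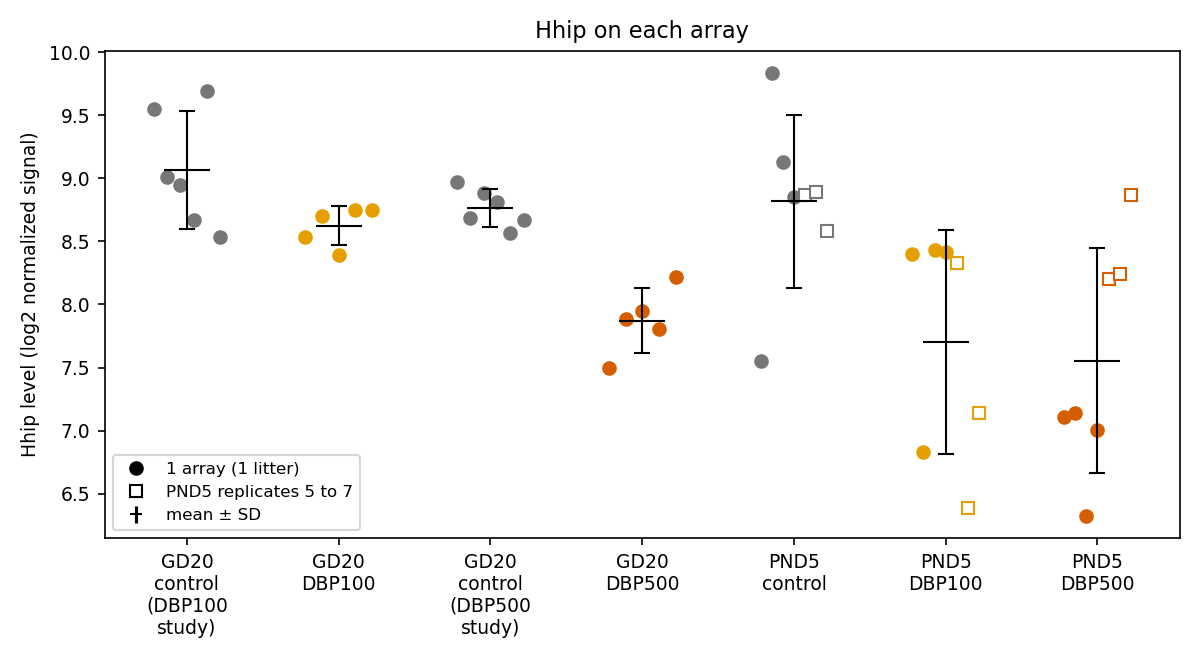
Hhip level (log2 normalized signal) on each array, by group. Points are arrays, open squares the PND5 replicates 5 to 7, and crosses the mean and SD; all 5 GD20 DBP500 arrays lie below all 6 of their controls, and the PND5 exposed arrays split into a high and a low set.

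Low Hhip at PND5 followed the array set differently for each dose. In DBP500 the lower-signal arrays, replicates 1 to 4, lay between 6.32 and 7.14, and the higher-signal arrays, replicates 5 to 7, were at 8.20, 8.24 and 8.87. All of the first set lay below all of the second. In DBP100 the low arrays were replicate 2 at 6.83, replicate 6 at 6.39 and replicate 7 at 7.14, from both sets, and the other 4 lay between 8.33 and 8.43. No PND5 array of any group fell between 7.55 and 8.20.

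Within the lower-signal arrays the DBP500 difference was -1.95 ± 0.35 (4 against 4 arrays, adjusted p = 0.000509), and within the higher-signal arrays it was -0.34 ± 0.40 (3 against 3, adjusted p = 1.0). The difference between these differences was -1.60 ± 0.53 (unadjusted p = 0.00438, adjusted p = 0.296, with 0.0368% of all probes passing). Of 14 fits with 1 array left out, 1 passed, that without control replicate 1 (-2.04 ± 0.48, limma adjusted p = 0.0492). The highest adjusted p among these fits was 0.741, and 0 of 9 other settings passed. For DBP100 the order was the other way round, with -0.82 ± 0.35 in the lower-signal arrays and -1.50 ± 0.40 in the higher-signal arrays. The direct difference between the doses was -1.13 ± 0.35 in the first set and 1.15 ± 0.40 in the second, and neither passed (adjusted p = 0.0666 and 0.584). With so few arrays in each set, the spread of a set is that of 3 or 4 litters.

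The fall at PND5 depended on the processing, on 1 array and on the weighting of arrays. Across 12 settings of the fit it kept its sign and passed in 7. It did not pass with a median shift in place of quantile normalization or with only the arrays of the comparison. With a block for the replicate number it did not pass either. Without DBP500 replicate 3, the lowest array, the difference was -1.06 ± 0.31 and no longer passed (adjusted p = 0.0684). With array weights it was -0.89 ± 0.27 (adjusted p = 0.0504).

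At GD20, on the last day of dosing, Hhip was lower in DBP500 with no overlap. The 5 DBP500 arrays were at 7.50, 7.88, 7.95, 7.81 and 8.22, and the 6 controls of that study ran from 8.57 through a median of 8.75 to 8.97. Every exposed array lay below every control, by at least the step from 8.22 to 8.57. Groups that did not overlap, with the exposed group lower, were found for 1.12% of all tested probes in this comparison. The difference was -0.89 ± 0.36, a 1.86-fold lower mean (95% interval -1.61 to -0.18, unadjusted p = 0.0158), and it did not pass over all probes (adjusted p = 0.51).

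That standard error came from the spread shared by all 7 groups, and the spread of Hhip was unequal. The SD was 0.15 in the controls of the DBP500 study and 0.26 in the exposed arrays, against 0.68 to 0.90 in the PND5 groups. Fitted on the 11 arrays of the comparison alone, the standard error was 0.12 and the same difference passed (limma adjusted p = 0.0164). Across the settings of this comparison 0 to 197 of all probes passed, against 41 in the fit used throughout. At PND5, where the spread was wider, the DBP500 difference did not pass when fitted on its own arrays alone. The exact permutation test gave p = 0.00216, the smallest that 462 splits of 5 and 6 arrays can give. This value restates the lack of overlap given above and is no separate support. With the control arrays of both GD20 studies pooled the difference was -1.04 ± 0.31 (adjusted p = 0.104).

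DBP100 at GD20 gave a smaller difference. Its arrays were at 8.54, 8.70, 8.39, 8.75 and 8.75, and its controls ran from 8.53 through 8.98 to 9.69. All 5 exposed arrays lay below the control mean and 1 below every control, so the groups overlapped. The difference was -0.44 ± 0.36 (interval -1.16 to 0.28, adjusted p = 0.716). The DBP500 difference minus the DBP100 difference at GD20 was -0.45 ± 0.50 (adjusted p = 0.83, with 0.133% of all probes passing), so that the doses were not shown to differ.

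Nor did the ages differ by test in how far Hhip was lowered. The PND5 difference minus the GD20 difference was -0.37 ± 0.47 for DBP500 (adjusted p = 0.799, 0.412% of all probes passing) and -0.67 ± 0.47 for DBP100 (adjusted p = 0.721). For DBP100 limma called 0 probes in this comparison, with 1156 of 13577 (8.51%) at an unadjusted p under 0.05. In controls Hhip differed by -0.10 ± 0.28 between the ages (adjusted p = 0.773) and by -0.30 ± 0.34 between the GD20 studies (adjusted p = 0.564, 22% of all probes passing).

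Markers of the cells in the tissue are set beside the Hhip values. In DBP500 at PND5, 3.67% of all tested probes passed. At PND5 the summed signal of the 14 dermal fibroblast genes ran from 140965 to 194419 units in controls and from 133775 to 170187 in DBP500. Of these genes 12 were lower and 2 higher in DBP500, none passed, and the median difference was -0.14 against 0.02 over all probes. Of 5 hair follicle markers all were lower and 1 passed, Trps1, a transcription factor of the follicle (-1.30 ± 0.32, adjusted p = 0.0200). Their summed signal was 15723 to 31288 units in controls and 17036 to 28023 in DBP500. Of a wider list of 16 epidermis and hair follicle genes, 2 passed and both fell, Trps1 and Casp14, a protease of the cornified layer (-0.95 ± 0.18, adjusted p = 0.00284). Of 3 red blood cell markers all were higher and 1 passed, the haemoglobin chain Hbb (0.70 ± 0.18, adjusted p = 0.0220), with sums of 14704 to 32811 units in controls and 24124 to 47333 in DBP500. The 5 keratinocyte, 3 endothelial and 4 leukocyte markers had none that passed. The part of these cells in the Hhip difference was not tested.

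At GD20 the fibroblast genes of the DBP500 study divided into 6 higher and 8 lower, with 1 that passed, Pdgfra (0.85, adjusted p = 0.0125), and the muscle and leukocyte markers were lower. Of all tested probes, 0.302% passed in this comparison. The 3 smooth muscle markers summed to 1774 to 1980 units in controls and 1095 to 1344 in DBP500, and 1 of them passed, Tagln, which encodes an actin-binding protein (-0.70 ± 0.15, adjusted p = 0.0214). All 6 skeletal muscle markers were lower and none passed, and their sums overlapped, with 410 to 2868 units in controls and 315 to 1152 in DBP500. All 4 leukocyte markers were lower and none passed, with a median of -0.41. Their sums were 2543 to 3403 units in controls and 1967 to 2516 in DBP500, and did not overlap. Among single probes, 1.12% of all tested did not overlap with the exposed group lower. No such share was computed for sums. The part of these cell types in the Hhip difference was not tested.

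Smo, the membrane protein that transmits the signal once ligand has bound, did not pass in any comparison over all 7 groups. Its mean at PND5 was higher in exposed litters at both doses, and neither difference passed. Controls ran from 5.33 through 6.07 to 6.45, DBP500 from 6.03 through 6.42 to 6.91 and DBP100 from 5.60 through 6.36 to 6.77. The ranges overlapped, with all 7 DBP500 arrays and 6 of 7 DBP100 arrays above the control mean. The difference was 0.43 ± 0.26 for DBP500 (interval -0.09 to 0.95, adjusted p = 0.387) and 0.32 ± 0.26 for DBP100 (interval -0.20 to 0.85, adjusted p = 0.713). The exact permutation test gave unadjusted p = 0.028 for DBP500 and 0.143 for DBP100 at PND5. At GD20 it gave 0.729 for DBP500 and 0.177 for DBP100. The DBP500 difference at PND5 was 0.66 in the lower-signal arrays and 0.12 in the higher-signal arrays. For DBP100 these were 0.39 and 0.23.

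At GD20 the DBP100 arrays spread far apart in Smo. They were at 5.85, 5.40, 5.18, 7.03 and 7.13, of which the arrays at 5.40 and 5.18 did not detect it. The 6 controls ran from 6.18 through 6.78 to 6.94, so 3 exposed arrays lay below every control and 2 above every control. The mean difference was -0.57 ± 0.29 (interval -1.16 to 0.02, adjusted p = 0.461). With array weights, which count discordant arrays less, it was -0.86 ± 0.25 and passed (adjusted p = 0.0221). Across the settings of this comparison 0 to 1118 of all probes passed, against 80 in the fit used throughout.

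The DBP500 arrays at GD20 were at 6.81, 6.69, 6.31, 6.20 and 5.51 in Smo, within a control range of 4.87 through 6.40 to 6.73 except for 1 array above it. The difference was 0.13 ± 0.29 (adjusted p = 0.996). Control replicate 6, at 4.87, did not detect Smo, and without it the difference turned to -0.13. The DBP100 difference at PND5 minus that at GD20 was 0.90 ± 0.39 (interval 0.11 to 1.68) and did not pass (adjusted p = 0.502). Between the ages, controls differed by -0.44 ± 0.23 (adjusted p = 0.0909), and without the same GD20 array by -0.57 ± 0.21, which passed (adjusted p = 0.0172).

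**Figure D3:**
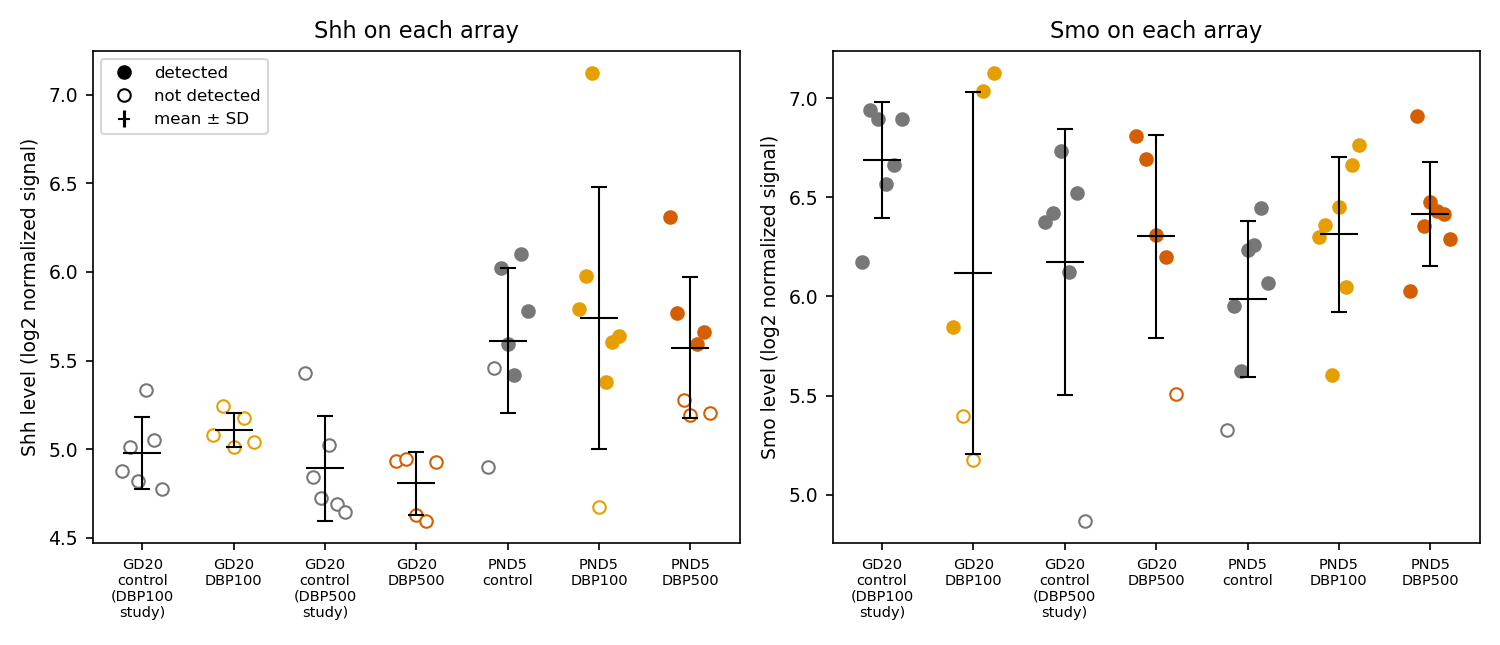
Shh (left) and Smo (right) levels (log2 normalized signal) on each array, by group, with filled points where the probe was detected and crosses for mean and SD. Shh is detected on PND5 arrays alone, and the 5 GD20 DBP100 arrays of Smo lie from 5.18 to 7.13 around controls of 6.18 to 6.94.

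The transcription factors that carry the signal into the nucleus could not be compared at these levels. Gli2, the main activator, was detected on 1 array, PND5 DBP500 replicate 7 (5.34), and its group means lay between 4.87 and 5.06. Gli3, the main repressor, was detected by 1 of its probes on 3 of 7 PND5 controls, 1 of 7 DBP100 arrays and 0 of 7 DBP500 arrays. On that probe the PND5 controls ran from 4.61 through 5.10 to 6.05 and the DBP500 arrays from 4.57 through 4.69 to 5.00. All 7 DBP500 values lay below the control mean, and the ranges overlapped. The probe was not tested, and the DBP500 arrays give only an upper limit. The other Gli3 probe stayed not above background everywhere, with group means of 4.67 to 4.77.

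Sufu, which binds GLI proteins in the cytoplasm and restrains them, was near the limit of detection and did not pass in any comparison. Its group means lay between 5.24 and 5.51, with detection on 3 of 22 GD20 and 8 of 21 PND5 arrays. At PND5 the DBP500 arrays ran from 5.19 to 6.33 and the controls from 5.10 to 5.59. The difference was 0.13 ± 0.15 for DBP500 (interval -0.16 to 0.43, adjusted p = 0.690) and -0.14 ± 0.15 for DBP100 (interval -0.43 to 0.16, adjusted p = 0.807). These groups detected it on 2 or 3 of 7 arrays each. At GD20 no exposed array detected Sufu, and no difference is given.

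**Figure D4:**
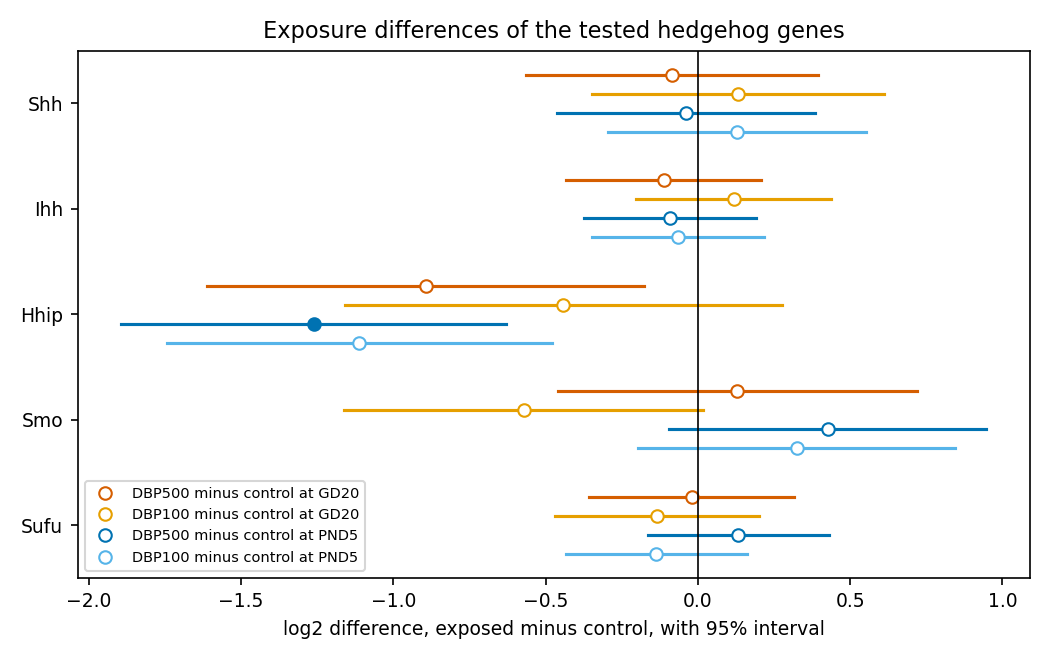
Log2 difference, exposed minus control, of the 5 tested genes with 95% intervals from the fit to all 7 groups; each gene has 4 comparisons and a filled point marks an adjusted p under 0.05. The Hhip values lie between -1.26 and -0.44, and the one filled point is DBP500 at PND5, while Ihh and Sufu at both ages and Shh at GD20 rest on values mostly not above background.

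Around these core genes stand those that release the ligand, hold the receptor complex or process GLI. Of 15 genes of ligand release and co-receptors 3 were tested, of 44 genes of the cytoplasm and cilium 25, and of 55 hedgehog target and genital tubercle genes 28. In DBP500 at PND5 none of the first list passed, 1 of the second rose and 1 fell, and 1 of the third fell, where 3.67% of all tested probes passed; the share in the third list is near that. The median differences were 0.01, -0.05 and -0.03, against 0.02 over all probes. In the other exposure comparisons none of these 3 lists had a gene that passed.

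Tbx18, a transcription factor of genital and urinary tract mesenchyme, fell in DBP500 at PND5. Controls ran from 6.30 through 6.86 to 7.08 and DBP500 arrays from 5.22 through 5.89 to 6.49, with an overlap between 6.30 and 6.49. The difference was -0.89 ± 0.20 (1.85-fold lower, adjusted p = 0.0107), and in DBP100 it was -0.64 ± 0.20 (adjusted p = 0.172).

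Fbxw11 encodes an F-box protein of the ubiquitin ligase that processes GLI proteins. It fell by 0.73 ± 0.19 on the log2 scale in DBP500 at PND5, from 7.04 ± 0.30 to 6.31 ± 0.44 (SD, n = 7 each, adjusted p = 0.0250 from limma), and its other probe was not tested. Evc2, a ciliary protein that binds Smo and promotes the signal, rose by 0.58 ± 0.15, from 7.56 ± 0.42 to 8.15 ± 0.20 (adjusted p = 0.0212). Within the higher-signal arrays none of the 3 passed, with -0.37 ± 0.28 for Tbx18, -0.27 ± 0.28 for Fbxw11 and 0.37 ± 0.23 for Evc2. Leaving out control replicate 3 ended the call of Evc2 (adjusted p = 0.0573) and of Fbxw11 (0.0587), and Fbxw11 was also lost without control replicate 4 and without DBP500 replicate 2 or 3.

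With age most probes of any kind passed, 34.9% of all downward and 26.7% upward. In controls, 18 of the 28 tested target and tubercle genes fell and 7 rose between GD20 and PND5, with a median of -0.64 against -0.09 over all probes. Age and study cannot be told apart here. Snai1 (-1.46), Bmp4 (-1.32), Nog (-1.19) and Isl1 (-1.16), regulators of mesenchyme and of BMP signalling, fell and were detected on every control array of both ages. Tbx3, a transcription factor of the tubercle, was detected on all 12 GD20 controls and on 2 of 7 PND5 controls. Prdm1, a regulator of epidermal differentiation, was detected on all 7 PND5 controls and on 4 of 12 GD20 controls, and Tbx18 on all 7 and on 3 of 12. For these 3 genes no size is given, since 1 age was mostly not above background.

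Of the 25 cytoplasm and cilium genes, 11 rose and 4 fell with age, with a median of 0.12, and the share that passed in either direction was close to the 61.6% of all probes. The casein kinases Csnk1a1 (1.37) and Csnk1d (1.23), which phosphorylate Smo and GLI proteins, rose and were detected on every control array. Fbxw11 was detected on all 7 PND5 controls and on 4 of 12 GD20 controls, and no size is given for it. With the median shift in place of quantile normalization this split was 9 rising and 7 falling, and the median turned to -0.17. Under that scaling the median of all probes was -0.28 and 71% of the calls in this comparison were downward, against 56.7% otherwise. The split of the target genes was 18 and 7 under both.

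Hhip and Smo did not follow one another from litter to litter. For each of the 5 tested probes the deviations from the group means were taken over all 43 arrays, which share the normalization. The 10 pairs of members had Pearson correlations between -0.09 and 0.10. Every pair with Shh, Ihh or Sufu rests on values mostly not above background. Its low correlation cannot tell whether those members followed one another. Hhip and Smo, the members detected on most arrays, had a correlation of -0.09. Hhip spread mainly on the PND5 arrays and Smo mainly on the GD20 arrays, and no correlation within an age was computed for them. The value over all arrays therefore cannot tell whether they followed one another within an age.

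Other genes came much closer to Hhip. The 4 with the highest correlation were Nfix (r = 0.89), Add3 (0.87), Klf9 (0.87) and Nfia (0.87). Spearman's rho for Nfix was 0.80, and r was 0.86 without the 2 arrays farthest from the median of Hhip. Nfix and Nfia are transcription factors of the nuclear factor I family, Klf9 is a transcription factor induced by steroid and thyroid hormones, and Add3 is a cytoskeletal protein. Over the 21 PND5 arrays r was 0.94 for Nfix, 0.90 for Add3, 0.92 for Klf9 and 0.95 for Nfia. Over the 22 GD20 arrays it was 0.27, 0.67, 0.41 and 0.15 in the same order, so that Add3 followed Hhip at both ages. These 4 genes were picked as the highest of all genes searched, so their r values are maxima. The deviations keep the difference between the PND5 array sets, by which Hhip split in DBP500. The part of the array sets in these correlations was not tested. In DBP500 at PND5 Nfix fell by 1.46 (adjusted p = 0.0257), Add3 by 1.14 (0.0174) and Klf9 by 1.06 (0.0403), while Nfia was at -0.41 and did not pass (0.177).

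For Smo the closest genes were Cav1 (r = 0.82), a protein of membrane caveolae, Tpm4 (0.81) and Actb (0.80) of the actin cytoskeleton, and Hnrnpa2b1 (0.80), an RNA-binding protein. Spearman's rho for Cav1 was 0.67, and r was 0.74 without the 2 farthest arrays. Over the 22 GD20 arrays r was between 0.89 and 0.93 for the 4 genes, and over the 21 PND5 arrays between 0.18 and 0.39. Actb is among the most abundant transcripts of any cell, and the deviations of 1 of its 3 probes at GD20 ran with those of Smo at r = 0.89. Cav1 likewise stands for 1 of 2 probes. The other probes of Actb and Cav1 were not among the 4 closest.

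**Figure D5:**
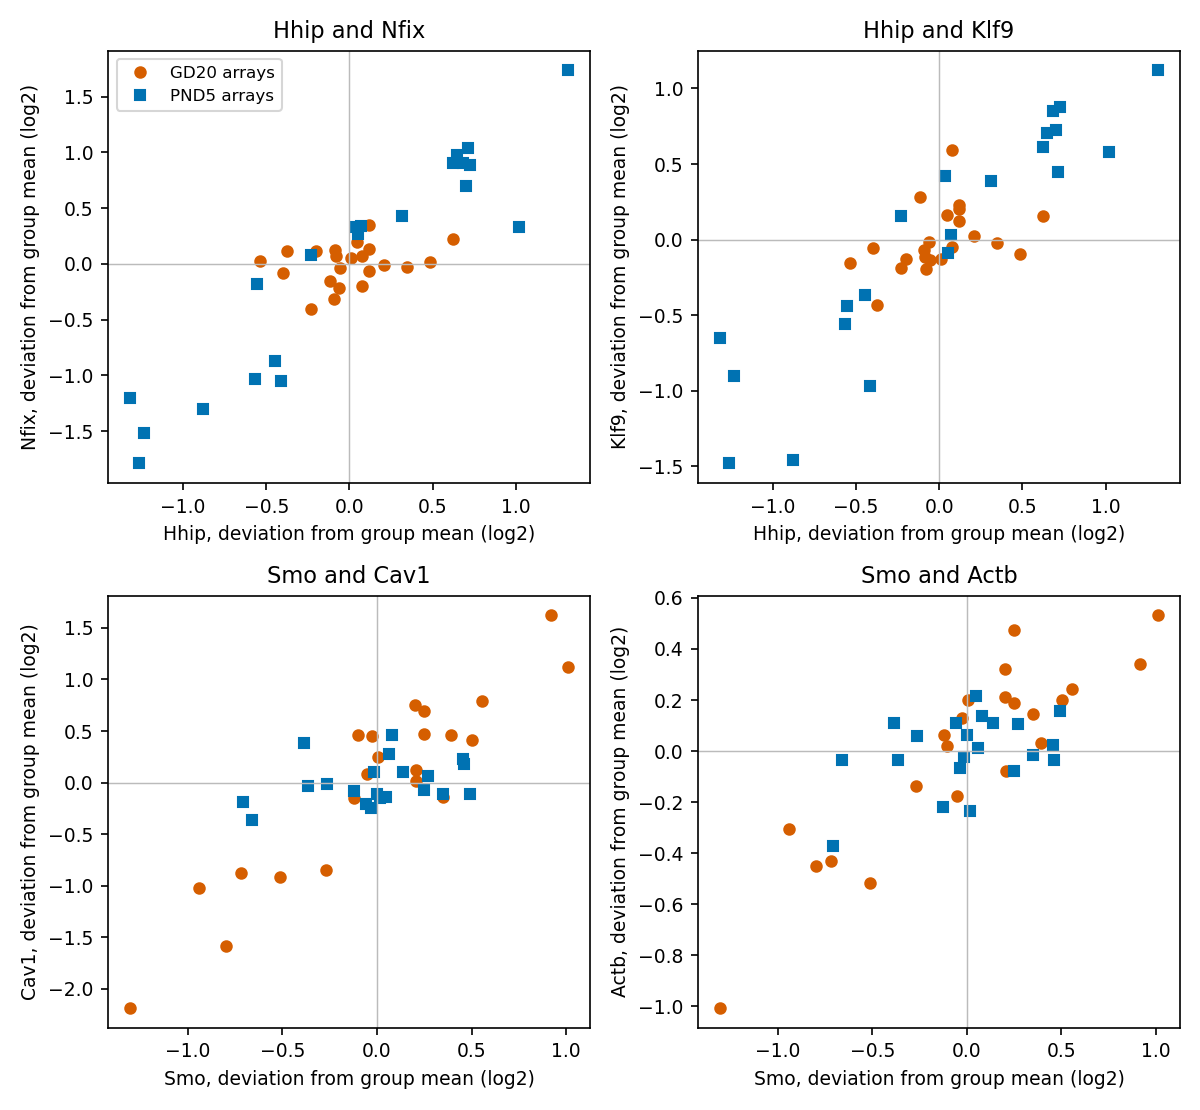
Deviation of Hhip from its group mean (log2, upper panels) against Nfix and Klf9, and of Smo (lower panels) against Cav1 and Actb; each point is 1 of 43 arrays. The PND5 arrays (squares) carry the spread of Hhip and the GD20 arrays (circles) that of Smo.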

How the data were processed

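Per the file headers, the deposited non-normalized table gave each of the 22523 probes a signal intensity on all 43 arrays together with a p-value for detection. The authors' processed intensity, on a linear scale, was in a second deposited table. The submitters' processing notes name limma; its version is not given in the sources used here. Groups and replicate numbers were taken from the sample titles, and each array is a litter, so p-values measure the spread between litters.

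For the values here, limma 3.58.1 (R 4.3.3) estimated background with nec from the detection p-values, added an offset of 16 and quantile-normalized the 43 arrays, and log2 was taken. Probes with a detection p under 0.05 on at least 5 arrays (13577, 60.3%) were fitted with 1 mean per group over all 7 groups, with 5.48 prior degrees of freedom. Two-sided p-values were adjusted by Benjamini-Hochberg over every tested probe, separately for each comparison. An adjusted p under 0.05 counted as passing. Errors of differences are standard errors, intervals are at 95%, and the number of arrays limits the precision. A fold against undetected arrays was computed against the lowest detected signal of each array.

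Symbols came from the platform annotation: 13793 probes had 1 symbol, 8730 had none, and 13752 were matched to RefSeq by gene ID. Where a listed gene had several tested probes, the one with the highest mean stood for it. Named were all members, pathway genes that passed under exposure, the 5 pathway genes with the largest measured rises and falls with age (a size is printed where both ages detected the gene), and the 4 genes most like each member detected on most arrays; cell markers that passed beside Hhip were named after their values were seen. The members, the lists and this rule were chosen with earlier results of these data known. The fits were tested on simulated data. No arrays had identical values.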

Additional observations from a re-analysis of the deposited data

Results flagged for a closer look

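Among 63 sets of values (9 probes in 7 groups), 10 held an array far from the rest of its group by Dixon's test, which chance alone gives in about 1 of 20. Most of these values were not detected. For Smo, GD20 control replicate 6 of the DBP500 study was at 4.87, with the others at 6.12 to 6.73. For Sufu, GD20 control replicate 4 of the DBP100 study was at 6.05 (others 5.15 to 5.47) and PND5 DBP500 replicate 1 at 6.33 (others 5.19 to 5.53), both detected. For Gli2, PND5 DBP500 replicate 7 was at 5.34 (others 4.74 to 4.91) and GD20 DBP100 replicate 2 at 4.70 (others 4.87 to 4.94). For Gli3, 1 probe was at 5.16 in PND5 DBP500 replicate 3 (others 4.51 to 4.70) and the other at 5.67 in GD20 control replicate 4 of the DBP500 study (others 4.75 to 4.91). For Ihh, PND5 control replicate 6 was at 4.83 on the tested probe (others 5.21 to 5.47) and at 4.95 on the second probe (others 4.71 to 4.76), and PND5 DBP100 replicate 4 was at 5.45 on the second probe (others 4.70 to 4.91). For no member did an exposure difference differ by limma's test between the doses at GD20 or between the ages.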

How the results depend on the processing

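The settings varied were the background correction, the normalization, the authors' processed values, the detection filter, the arrays in the fit, array weights, a block for the replicate number or the PND5 array set, pooled GD20 controls and each array left out in turn; the exact permutation tests were added after the data were seen. Hhip was lower in DBP500 at PND5 in all 12 settings, from -1.95 to -0.34, and passed in 7 of them, and in 13 of 14 fits with 1 array left out (-1.48 to -1.06). There the number of member probes that passed went from 1 to 0 with the median shift (adjusted p = 0.125), with only the arrays of the comparison (0.0898), with array weights (0.0504), with the replicate block (0.114) and within replicates 5 to 7 (1.0), and ranged from 0 to 1 with 1 array left out. Among arrays of the same replicate number, at most 2 of 7 pairs in a comparison correlated above 0.1, which cannot exclude a pairing. With the replicate block 0 probes passed in DBP500 at PND5, against 498. In DBP500 at GD20 the number went from 0 to 1 with only the arrays of the comparison (Hhip), and in DBP100 at GD20 from 0 to 1 with array weights (Smo). With age it went from 1 to 0 when detection on most arrays was required, since Shh was then not tested, and ranged from 1 to 2 with 1 array left out. For the difference between the array sets it ranged from 0 to 1. Over all probes the number that passed ranged across settings from 0 to 910 in DBP500 at PND5 (190 to 730 with 1 array left out), from 0 to 24 in DBP100 at PND5, from 0 to 197 in DBP500 at GD20, from 0 to 1118 in DBP100 at GD20 and from 0 to 381 between the PND5 doses. For the dose difference at GD20 it ranged from 0 to 564, for the age difference of DBP500 from 4 to 264, for that of DBP100 from 0 to 92, for the array sets from 0 to 36, and with age from 7207 to 8895. The median shift left 31.7% of the calls between the GD20 controls downward against 53.1%, and moved their median to 0.15. Signal over background limits what can be said of Gli2, Gli3, Ihh and Sufu, and of Shh at GD20.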
